A study of Mus musculus with 12 samples.

Results

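The genes described are the aminoacyl-tRNA synthetases of the mouse, 20 listed enzymes of the cytosol and 16 of the mitochondrion, chosen by gene symbol: the cytosolic genes end in ars (ars1 in newer names) and the mitochondrial ones in ars2, with Eprs, Farsa and Farsb added for the cytosolic enzymes that these endings miss. Of the 36 listed genes, 35 were measured, among 19990 genes and unnamed probe sets tested. They were 19 cytosolic and 16 mitochondrial genes, and Dars, the cytosolic aspartyl-tRNA synthetase, was not analysed here. No value of the arrays entered the choice, although results of these data were already known when the list was drawn up.

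The RNA came from mouse bone marrow lines transformed by the fusion gene NUP98-HOXD13 and was measured on 12 arrays, 3 for each of 4 groups. All groups carry that fusion. MIY-ctrl received a retroviral vector that codes for YFP alone. MEIS1-WT received wildtype MEIS1, a homeobox transcription factor, MEIS1-deltaHD received a MEIS1 that lacks its homeodomain, and M33-MEIS1 received the construct of that name, of which the labels say no more. The marrow donors were F1 mice of the cross C57Bl/6Ly-Pep3b x C3H/HeJ, given 5-fluorouracil, whose age is not given. The lines were kept for 4 weeks in liquid culture with 10 ng/ml hIL-6, 6 ng/ml mIL3 and 100 ng/ml mSCF, and the second virus was passed to them during 2 days on irradiated E86 producer cells. The fusion was carried by a GFP or a pac virus, and which of them each array's line carried was not stated in the labels. Each group stands for 3 independent experiments, according to the series record, and it is not stated whether these began from separate lines, so the p-values measure the spread between these experiments.

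An aminoacyl-tRNA synthetase joins one amino acid to the tRNAs that read its codons, so that the ribosome adds the residue the codon calls for. Animal cells keep separate sets for the cytosol and for the mitochondrion, all but a few of them encoded by different nuclear genes, while Kars and Gars each make both forms. Several cytosolic enzymes sit together on scaffold proteins in the multisynthetase complex. When amino acids run short, uncharged tRNA activates the kinase GCN2 (Eif2ak4), and the transcription factor ATF4 then raises amino acid transporters, amino acid synthesis enzymes and many cytosolic synthetase genes.

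Signals are in the array software's linear units, scaled on each array to the same trimmed mean. Differences are in log2(signal + 16), with the control subtracted, and their tests are limma's moderated test with Benjamini-Hochberg adjustment over all 19990 features. A gene was called where the adjusted p was under 0.05. Signals of different genes come from different probes and are not set against each other.

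The arrays of the control stood apart from the others in several measures. The median signal of an array was 17.4 to 21.6 in MIY-ctrl and 13.1 to 16.04 in the 3 construct groups. The 3' to 5' signal ratio of the actin control probe sets was 1.49 to 1.51 against 1.30 to 1.48, and that of Gapdh was 0.774 to 0.801 against 0.811 to 0.882. Markers of monocytes and macrophages were lower with every construct, 10 of 10 in each comparison. Their summed signal per array was 12413 to 13965 in MIY-ctrl, 634 to 802 in MEIS1-WT, 2498 to 2732 in MEIS1-deltaHD and 3972 to 4431 in M33-MEIS1. The 9 neutrophil markers summed to 14493 to 18355, 13765 to 14489, 20881 to 22297 and 21412 to 25016 in the same order. Of 8 mast cell and basophil markers 6, 5 and 1 were lower and 1, 2 and 4 higher, with sums of 2654 to 3636, 1869.6 to 1986, 2212 to 2335 and 4028 to 4357. Of 3 T and NK cell markers 1 was lower with MEIS1-WT and none was called otherwise, with sums of 219 to 247, 134 to 176, 240.3 to 283 and 207 to 254. For these counts, the shares of all features were 19.4%, 22.7% and 18.3% lower and 13.3%, 13.8% and 12.4% higher. A count of 1 in 8 is near or below those shares. Sums over 4 fibroblast markers, cells of the kind that produced the virus, were 419.6 to 507, 316 to 342, 237 to 313 and 249 to 269. Markers of B cells (2 genes, 5.19 to 30.0) and of the erythroid lineage (2 genes, 26.2 to 58.2) were near the floor in every group. The part of these differences in the results that follow was not tested. In bulk RNA, fewer cells of a type and less RNA per cell cannot be told apart.

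Most cytosolic synthetase genes were lower with each of the 3 constructs, and a few were higher. With MEIS1-WT, 14 of 19 were lower and 3 higher, where 19.4% of all features were lower and 13.3% higher. With MEIS1-deltaHD, 13 were lower and 3 higher, beside 22.7% and 13.8% of all features. With M33-MEIS1, 14 were lower and 3 higher, beside 18.3% and 12.4%. The median difference of the 19 genes was -0.35, -0.35 and -0.40, where the median of all features was -0.12, -0.17 and -0.13. The 3 comparisons share the same control arrays and are therefore not independent of each other. Lower with all 3 constructs were 13 genes, and for 12 of the 13 no construct array overlapped a control array in any comparison. The exception was Wars, whose MEIS1-deltaHD arrays overlapped the controls. The shares of all features for these counts were not computed. Calls and overlap come from the same arrays, so the lack of overlap is no further support.

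Cytosolic synthetase probe sets are bright, and bright probe sets as a whole went the other way. Among the 3617 features whose mean signal lay within the range of the cytosolic members, a comparison chosen after the values were seen, 42.1%, 44.7% and 40.5% were higher and 21.0%, 22.5% and 20.2% lower in the comparisons of MEIS1-WT, of MEIS1-deltaHD and of M33-MEIS1. Of the cytosolic members 15.8% were higher in each comparison and 73.7%, 68.4% and 73.7% were lower. The number of lower genes depended on how arrays were put on one scale. Setting the arrays to one median moved the median of all features up by 0.19, 0.25 and 0.19, and left 8, 7 and 9 cytosolic genes lower and 4, 5 and 5 higher, with a cytosolic median of -0.16, -0.10 and -0.22. Over all features that scaling changed the proportion of higher genes among those called from 40.7%, 37.8% and 40.3% to 67.5%, 70.7% and 69.9%. Mars, Vars, Wars and Qars were among the calls lost, apart from Wars with M33-MEIS1. Quantile normalization, which moved the median up by 0.13, 0.16 and 0.12, left 14, 13 and 14 cytosolic genes lower and 3 higher, while the proportion of higher genes among the calls over all features became 51.0%, 49.6% and 50.6%.

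**Figure D1:**
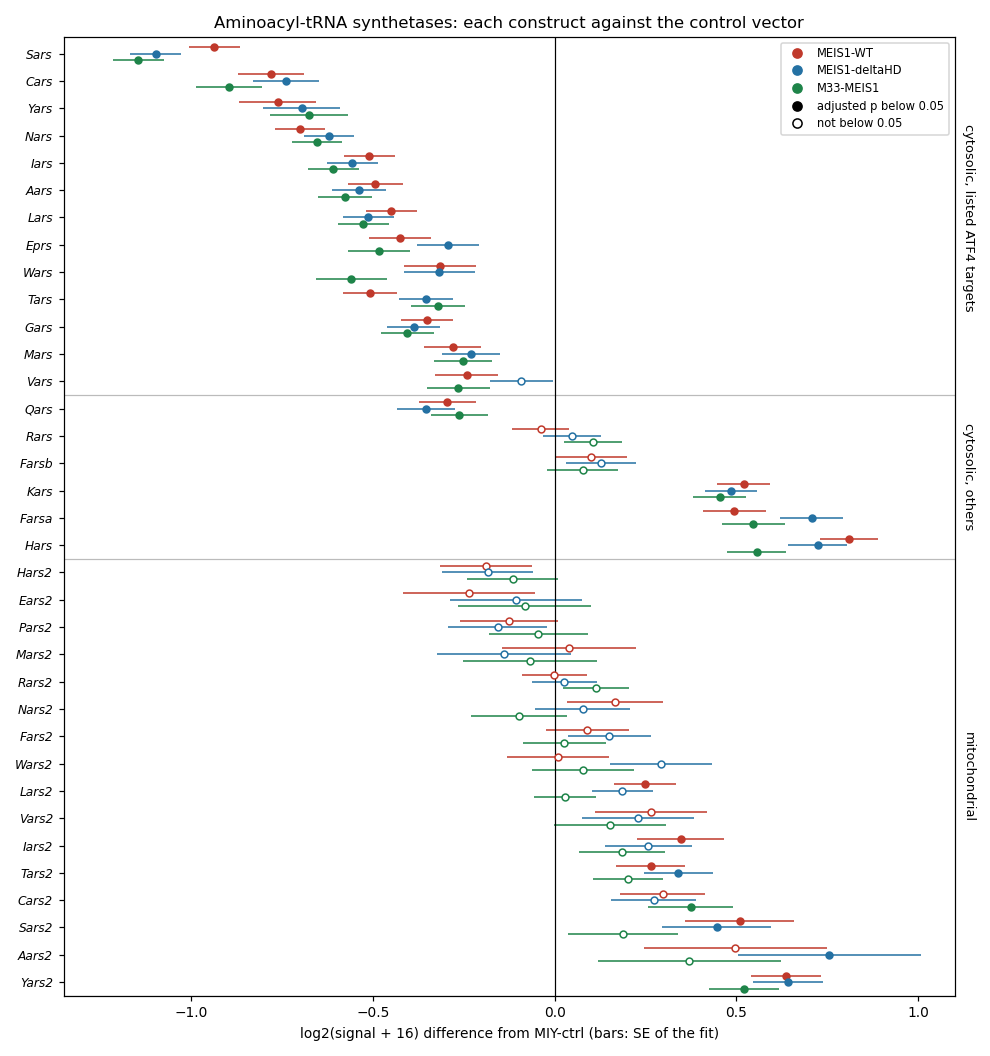
Differences of log2(signal + 16) from MIY-ctrl (horizontal axis) for the 35 measured synthetase genes, one row a gene, with MEIS1-WT in red, MEIS1-deltaHD in blue and M33-MEIS1 in green, SE of the fit as bars and filled points for adjusted p below 0.05. The listed ATF4 targets lie left of 0, from -1.14 for Sars to -0.091 for Vars, Hars, Farsa and Kars lie to the right, and the mitochondrial genes run from -0.24 for Ears2 to 0.76 for Aars2.

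The direction followed a division of the cytosolic enzymes known from other work. Of the 13 measured genes listed as targets of ATF4, 13, 12 and 13 were lower in the 3 comparisons, the exception being Vars with MEIS1-deltaHD, and none was higher. Their median difference was -0.49, -0.51 and -0.56, and with the arrays set to one median it was -0.30, -0.26 and -0.37. The other 6 measured cytosolic genes gave 3 higher (Farsa, Hars and Kars), 1 lower (Qars) and 2 not called (Rars and Farsb) with each construct, with a median of 0.30, 0.31 and 0.28. That median was 0.49, 0.56 and 0.47 with the arrays set to one median, 0.19, 0.18 and 0.16 after quantile normalization, and 0.077, 0.16 and 0.16 with the mean of each gene's probe sets. Of all features, 13.3%, 13.8% and 12.4% were higher and 19.4%, 22.7% and 18.3% lower in the 3 comparisons. Among features in the cytosolic members' range of mean signal, 42.1%, 44.7% and 40.5% were higher and 21%, 22.5% and 20.2% lower. The counts of the other 6 genes, 3 higher and 1 lower, are near these last shares. The ATF4 list was drawn up from general knowledge when the lower level of other ATF4 targets in these arrays was already known. The division is therefore no independent evidence. The summed signal of the 13 genes was 14954 to 15805 on the control arrays, 10299 to 10541 in MEIS1-WT, 10445 to 10615 in MEIS1-deltaHD and 9975 to 10270.4 in M33-MEIS1.

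Sars, which charges serine tRNAs and also the tRNA for selenocysteine, had the largest difference among the 35 genes with each construct. Its probe set gave 1985, 1858 and 1808 on the MIY-ctrl arrays, 945, 1018 and 967 on those of MEIS1-WT, 881, 872 and 860.1 on those of MEIS1-deltaHD and 874, 834 and 821 on those of M33-MEIS1. Every construct array lay below every control array, and the MEIS1-WT arrays lay above those of the other 2 constructs. The mean fell to 0.519, 0.463 and 0.447 of the control mean, differences of -0.94, -1.10 and -1.14 (SE 0.0694 in each, adjusted p = 1.23e-10, 9.48e-12 and 7.35e-12).

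Cars, the cysteinyl-tRNA synthetase, gave 431, 372 and 435 on the MIY-ctrl arrays, 237, 222 and 241 on those of MEIS1-WT, 239, 223 and 259.9 on those of MEIS1-deltaHD and 206, 225 and 211 on those of M33-MEIS1. The control arrays stood clear of all others, and the constructs overlapped among themselves. The differences were -0.78, -0.74 and -0.89 (SE 0.0909 in each, adjusted p = 2.49e-07, 5.71e-07 and 4.29e-08). Yars, the tyrosyl-tRNA synthetase, gave 533, 479 and 541 on the MIY-ctrl arrays, 365, 259 and 280.4 on those of MEIS1-WT, 345, 301 and 295 on those of MEIS1-deltaHD and 288, 321 and 347 on those of M33-MEIS1. Its lowest control array was above its highest construct array. The differences were -0.76, -0.70 and -0.68 (SE 0.107 in each, adjusted p = 3.94e-06, 1.31e-05 and 2.6e-05).

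Nars, which charges asparagine tRNAs, gave 2990.0, 2724 and 2855 on the MIY-ctrl arrays, 1787, 1782 and 1682 on those of MEIS1-WT, 1788, 1960.4 and 1810.3 on those of MEIS1-deltaHD and 1809, 1857 and 1762 on those of M33-MEIS1. No construct array reached the lowest control array, and the fit gave -0.70, -0.62 and -0.65 (SE 0.0688 in each, adjusted p = 1.56e-08, 1.21e-07 and 7.37e-08). Asns, which makes asparagine itself, was lower too, with differences of -1.03, -0.98 and -1.03. Iars, the isoleucyl enzyme of the multisynthetase complex, gave 1511, 1580.0 and 1443 on the MIY-ctrl arrays, 1113, 1041 and 1017 on those of MEIS1-WT, 1031, 1051 and 986 on those of MEIS1-deltaHD and 1025, 989.6 and 943 on those of M33-MEIS1. Its groups were separate from the control in the same way, with differences of -0.51, -0.56 and -0.61 (SE 0.0709 in each, adjusted p = 3.52e-06, 9.81e-07 and 3.75e-07).

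Aars, the alanyl-tRNA synthetase, gave 1219, 1115 and 1188 on the MIY-ctrl arrays, 795, 825 and 869 on those of MEIS1-WT, 826, 811 and 775 on those of MEIS1-deltaHD and 836, 791 and 723 on those of M33-MEIS1. Again no array of a construct overlapped the control, and the mean came to 0.707, 0.685 and 0.667 of the control mean. The differences were -0.49, -0.54 and -0.58 (SE 0.0748 in each, adjusted p = 1.16e-05, 3.42e-06 and 1.75e-06). Setting the arrays to one median, or any other alternative under which they could be computed, left Sars, Cars, Yars, Nars, Iars, Aars and Lars called lower with all 3 constructs.

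**Figure D2:**
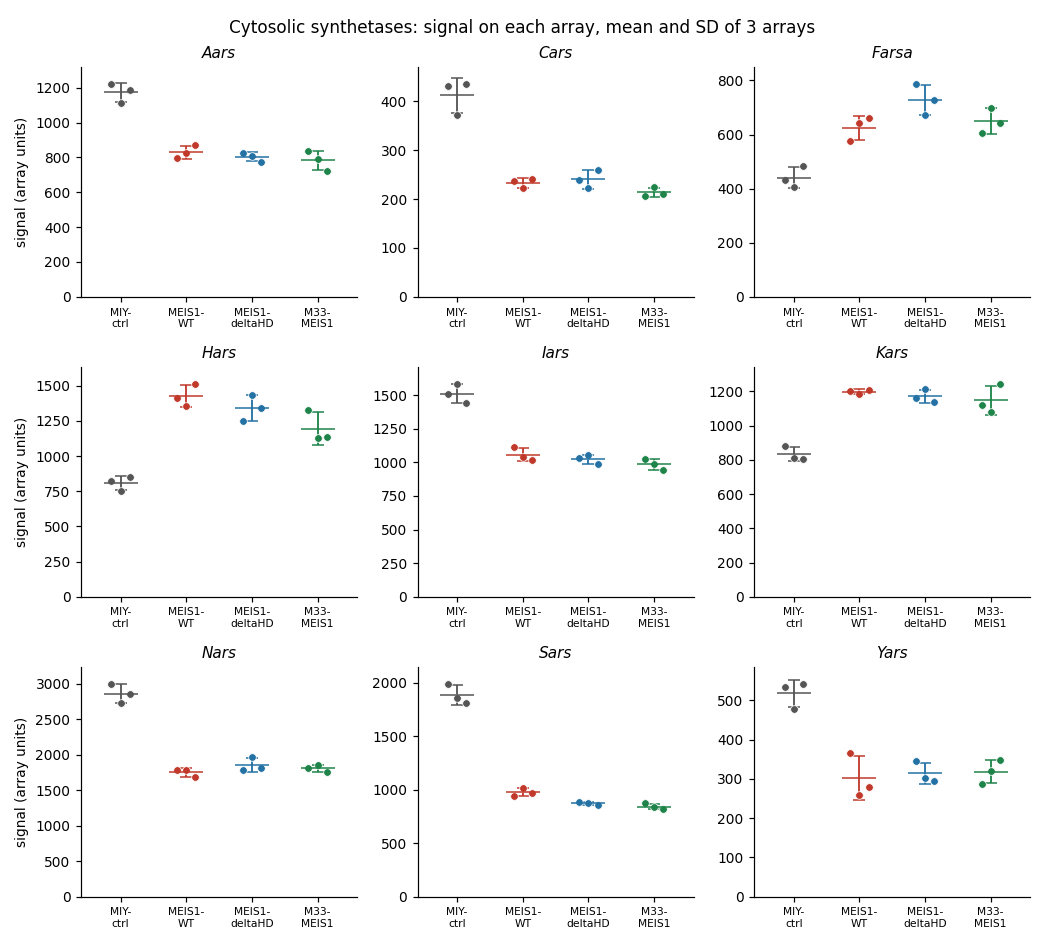
Signal in array units (vertical axes, from 0) of 9 cytosolic synthetase genes on each of the 12 arrays, with the mean and SD of the 3 arrays of a group. Aars, Cars, Iars, Nars, Sars and Yars are lower on every construct array than on every MIY-ctrl array, and Farsa, Hars and Kars are higher on every construct array.

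The remaining genes called lower with 1 construct or more were Lars, Tars, Gars, Eprs, Mars, Vars, Wars and Qars. Lars, the leucyl enzyme of the complex, differed by -0.45, -0.51 and -0.53, Tars, the threonyl enzyme, by -0.51, -0.35 and -0.32, and Gars, the glycyl enzyme, by -0.35, -0.39 and -0.40. Eprs, a single protein that charges both glutamate and proline tRNAs, had means of 1081 ± 96.7 (SD, n = 3) in the control, 802 ± 94.5, 877 ± 11.5 and 768 ± 41.9, differences of -0.43, -0.29 and -0.48. With the arrays set to one median, Gars was no longer called with any construct (-0.16, -0.13 and -0.22), nor was Tars with MEIS1-deltaHD and M33-MEIS1 or Eprs with MEIS1-WT and MEIS1-deltaHD.

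Mars, the methionyl enzyme that also charges initiator tRNA, had means of 982 ± 91.8 (SD, n = 3) in the control, 804 ± 39.7, 833 ± 36.2 and 820.1 ± 44.6. Its differences of -0.28, -0.23 and -0.25 passed the test (adjusted p = 0.00775, 0.0257 and 0.0175). They were among the smallest that did, and with the arrays set to one median Mars stood at 0.025 with MEIS1-deltaHD. Its calls were lost when certain single arrays were left out, though the differences kept their direction. The difference with MEIS1-WT was -0.22 on leaving out MIY-ctrl replicate 1 (adjusted p = 0.0594). With MEIS1-deltaHD it was -0.17 on leaving out MIY-ctrl replicate 1 (adjusted p = 0.137), -0.21 on leaving out MIY-ctrl replicate 3 (adjusted p = 0.0674), -0.20 on leaving out MEIS1-deltaHD replicate 1 (adjusted p = 0.0948) and -0.22 on leaving out MEIS1-deltaHD replicate 2 (adjusted p = 0.0756). With M33-MEIS1 it was -0.20 on leaving out MIY-ctrl replicate 1 (adjusted p = 0.106) and -0.21 on leaving out M33-MEIS1 replicate 1 (adjusted p = 0.0887).

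Vars, the valyl enzyme, differed by -0.24, -0.091 and -0.26 (adjusted p = 0.0343, 0.439 and 0.0221), so that it was called lower with MEIS1-WT and M33-MEIS1. The difference with MEIS1-WT was -0.20 on leaving out MIY-ctrl replicate 3 (adjusted p = 0.116), -0.21 on leaving out MEIS1-WT replicate 1 (adjusted p = 0.11) and -0.20 on leaving out MEIS1-WT replicate 3 (adjusted p = 0.132). With M33-MEIS1 it was -0.22 on leaving out MIY-ctrl replicate 3 (adjusted p = 0.0806), -0.25 on leaving out M33-MEIS1 replicate 1 (adjusted p = 0.0644) and -0.22 on leaving out M33-MEIS1 replicate 3 (adjusted p = 0.0848). Whether Vars differed between MEIS1-deltaHD and the other constructs is covered by the direct tests between constructs, none of which passed.

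Wars, the tryptophanyl enzyme, is also known as a gene raised by interferon. It gave 435, 470.4 and 364 on the MIY-ctrl arrays, 334, 323 and 348 on those of MEIS1-WT, 365, 297 and 344 on those of MEIS1-deltaHD and 263, 301 and 278 on those of M33-MEIS1. The MEIS1-WT and M33-MEIS1 arrays lay below the control, and those of MEIS1-deltaHD overlapped it. The differences were -0.32, -0.32 and -0.56 (SE 0.0978 in each, adjusted p = 0.0148, 0.0128 and 9e-05). With MEIS1-WT the value was -0.29 on leaving out MIY-ctrl replicate 1 (adjusted p = 0.0548), -0.24 on leaving out MIY-ctrl replicate 2 (adjusted p = 0.0853) and -0.29 on leaving out MEIS1-WT replicate 2 (adjusted p = 0.0589). With MEIS1-deltaHD it was -0.24 on leaving out MIY-ctrl replicate 2 (adjusted p = 0.076) and -0.24 on leaving out MEIS1-deltaHD replicate 2 (adjusted p = 0.0996). Another probe set of Wars, fitted by limma as a feature of its own, was not called with any construct. It gave -0.25, -0.12 and -0.26 (adjusted p = 0.0921, 0.438 and 0.0823). The remaining probe sets of Wars were called lower with each construct. Genes of the interferon response were lower as well, 16, 14 and 14 of 16 being lower and none higher. Beside them, 19.4%, 22.7% and 18.3% of all features were lower and 13.3%, 13.8% and 12.4% higher. The summed signal of the interferon genes was 5705 to 8768 in the control against 1458 to 1952 over the constructs.

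Qars, the glutaminyl enzyme, was the one lower gene outside the ATF4 list. Its brightest probe set gave 1329.6, 1229 and 1352 in the control, 1064, 1111 and 1003 for MEIS1-WT, 1006, 1031 and 1011 for MEIS1-deltaHD and 1205, 1089 and 970.2 for M33-MEIS1. Its differences were -0.30, -0.35 and -0.26 (SE 0.0788 in each, adjusted p = 0.00492, 0.000929 and 0.0132). No array overlapped the control. The call with M33-MEIS1 became -0.18 on leaving out M33-MEIS1 replicate 3 (adjusted p = 0.0899). Its 4 probe sets disagreed: another bright one gave -0.32, -0.21 and -0.028, of which the first passed, and another gave -0.47, -0.48 and -0.36 and was called lower with all 3 constructs. A dim one, the one left when probe sets shared between transcripts are dropped, gave 0.10, 0.14 and 0.30 and was not called.

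Higher with all 3 constructs were Hars, Kars and Farsa. Hars, the histidyl enzyme, gave 819.5, 751 and 850.0 on the MIY-ctrl arrays, 1411, 1358 and 1509 on those of MEIS1-WT, 1252, 1437 and 1341 on those of MEIS1-deltaHD and 1327, 1125 and 1133 on those of M33-MEIS1. All construct arrays were above all control arrays, and the mean was 1.77, 1.66 and 1.48 times that of the control. The differences were 0.81, 0.72 and 0.56 (SE 0.0809 in each, adjusted p = 2.09e-08, 1.38e-07 and 8.71e-06).

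Kars, the lysyl enzyme of both compartments and of the multisynthetase complex, gave 879, 812 and 806 on the MIY-ctrl arrays, 1202, 1186 and 1209.9 on those of MEIS1-WT, 1160.1, 1213 and 1138 on those of MEIS1-deltaHD and 1119, 1081 and 1241 on those of M33-MEIS1. The groups did not overlap with the control, and the mean was 1.44, 1.41 and 1.38 times the control mean. The differences were 0.52, 0.48 and 0.45 (SE 0.0724 in each, adjusted p = 3.52e-06, 8.92e-06 and 2.86e-05). The calls of Hars and Kars held under every alternative tried.

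Farsa encodes the alpha subunit of the cytosolic phenylalanyl enzyme, which is built of alpha and beta chains. It gave 432, 405 and 483 on the MIY-ctrl arrays, 575, 642 and 660.2 on those of MEIS1-WT, 785, 671 and 727 on those of MEIS1-deltaHD and 606, 699.6 and 643 on those of M33-MEIS1. No construct array was as low as a control array, and the differences were 0.49, 0.71 and 0.55 (SE 0.0868 in each, adjusted p = 7.5e-05, 5.68e-07 and 2.7e-05). This rests on the bright probe set: 3 further probe sets of Farsa had control means of 23.2, 24.5 and 31.0, and the mean of all 4 differed by 0.19, 0.27 and 0.22, which was not called. Farsb, the beta subunit, had means of 983 ± 162 (SD, n = 3) in the control, 1047 ± 84.9, 1069 ± 109 and 1028 ± 3.37. Its differences of 0.10, 0.13 and 0.077 were not called (adjusted p = 0.471, 0.325 and 0.594). One dim probe set of Farsb was lower with MEIS1-deltaHD (-0.66) and M33-MEIS1 (-0.45), and a brighter one was higher with M33-MEIS1 (0.33). Rars, the arginyl enzyme of the complex, had means of 1214 ± 117 (SD, n = 3), 1178 ± 30.7, 1254 ± 88.5 and 1304 ± 72.7, overlapped with the control in all 3 comparisons and was not called (-0.039, 0.048 and 0.11).

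The members of the multisynthetase complex did not move as one. Of its 7 measured enzymes, 5 were lower (Eprs, Iars, Lars, Mars and Qars), 1 was higher (Kars) and 1 was not called (Rars) with each construct. Among its scaffold proteins, Aimp2 gave 358, 397 and 369.9 on the MIY-ctrl arrays, 661, 688 and 664 on those of MEIS1-WT, 892, 791 and 669 on those of MEIS1-deltaHD and 646, 634 and 579.6 on those of M33-MEIS1. Those differences were 0.81, 1.02 and 0.70 (SE 0.089 in each, adjusted p = 9.15e-08, 2.34e-09 and 1.27e-06), with no overlap. Eef1e1, also called AIMP3, was higher by 0.46, 0.44 and 0.45. Aimp1 differed by -0.018, 0.00072 and -0.033 and was not called. By structural class, the class I enzymes of both compartments (18) gave 3, 1 and 2 higher and 8, 7 and 8 lower, and the class II enzymes (16) gave 5, 6 and 3 higher and 5 lower with each construct, beside the 13.3%, 13.8% and 12.4% of all features that were higher and the 19.4%, 22.7% and 18.3% that were lower. The higher counts of class I are near those shares or below them.

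The letters before the start of some members are shown because ATF4 binds, with a partner, a composite element (CARE) whose letters were searched as TGATGNAA. The interferon elements searched were the ISRE core GAAANNGAA and the GAS letters TTCNNNGAA, all on both strands of the 250 bases before the start, in RefSeq promoters of the build GRCm38.p6. The table held a promoter for 13 cytosolic members, Dars among them, and 14 mitochondrial ones. CARE letters stood in 3 of the 13 (Aars, Gars and Tars, at 112, 30 and 15 bases before the start) and 0 of the 14. Members are counted by gene, and CARE letters stood in 3.91% of all 27025 genes with a promoter (3.45% of all 32851 promoters). GAS letters stood in 2 of 13 (Aars and Kars) and 1 of 14 (Nars2), and in 8.13% of all genes (7.02% of promoters). The ISRE core stood in 1 of 13 (Qars), 0 of 14 and 8.18% of all genes (7.13% of promoters). Where CARE and GAS letters occur together, as in Aars, they do not overlap. These are matches of letters, not sites of binding, and a promoter with no match says only that the letters are not in this window. The 4 matching promoters with the largest differences are given 5′ to 3′ on the gene's strand, with the matches in capitals.
Aars (chr8:111033592-111033841, plus strand): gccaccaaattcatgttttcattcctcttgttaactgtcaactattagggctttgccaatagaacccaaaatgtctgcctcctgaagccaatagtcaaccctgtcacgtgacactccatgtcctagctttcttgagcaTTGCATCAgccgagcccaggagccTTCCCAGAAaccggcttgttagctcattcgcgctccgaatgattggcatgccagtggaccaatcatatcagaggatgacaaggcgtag
Gars (chr6:55037751-55038000, plus strand): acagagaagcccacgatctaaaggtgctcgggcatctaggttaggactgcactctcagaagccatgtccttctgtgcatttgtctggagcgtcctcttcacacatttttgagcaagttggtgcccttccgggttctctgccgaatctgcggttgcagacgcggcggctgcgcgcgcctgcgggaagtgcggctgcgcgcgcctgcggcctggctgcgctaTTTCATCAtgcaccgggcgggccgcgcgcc
Tars (chr15:11399659-11399908, minus strand): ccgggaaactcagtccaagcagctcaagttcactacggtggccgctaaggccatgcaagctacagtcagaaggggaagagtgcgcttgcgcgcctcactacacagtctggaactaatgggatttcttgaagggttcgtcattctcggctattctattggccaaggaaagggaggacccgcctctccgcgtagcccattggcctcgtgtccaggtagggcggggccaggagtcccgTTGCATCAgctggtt
Kars (chr8:112011355-112011604, minus strand): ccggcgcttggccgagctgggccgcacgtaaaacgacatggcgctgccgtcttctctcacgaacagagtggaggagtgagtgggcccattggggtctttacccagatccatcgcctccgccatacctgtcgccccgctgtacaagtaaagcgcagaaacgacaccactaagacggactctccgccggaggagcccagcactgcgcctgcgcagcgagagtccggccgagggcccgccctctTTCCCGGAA

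Aars, Gars and Tars, which carry the CARE letters, were lower with every construct. Eprs, Iars, Mars, Qars, Sars and Yars, whose promoters in the table hold no CARE letters, were lower with every construct too, and Kars, with GAS letters alone, was higher.

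Most mitochondrial synthetase genes were not called, and those that were called were higher. With MEIS1-WT, 5 of 16 were higher and 0 lower, with MEIS1-deltaHD 4 and 0, and with M33-MEIS1 2 and 0, beside 13.3%, 13.8% and 12.4% of all features higher and 19.4%, 22.7% and 18.3% lower. The 2 genes of the last comparison are 12.5% of the 16, a share near that of all features. The median difference was 0.21, 0.21 and 0.10, and it stayed above 0 under each scaling (0.40, 0.46 and 0.28 with the arrays set to one median, 0.26, 0.28 and 0.17 after quantile normalization). With the mean of each gene's probe sets it was 0.081, 0.017 and 0.039. Over the 8108 features within the mitochondrial members' range of mean signal, 15.4%, 16.3% and 13.7% were higher and 27.4%, 30.7% and 25.7% lower. Scaling moved the counts: 8, 7 and 2 genes were higher after quantile normalization and 8, 11 and 4 with the arrays set to one median, none being lower.

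Yars2, the mitochondrial tyrosyl enzyme, was the one called with all 3 constructs. It gave 158, 169 and 164 on the MIY-ctrl arrays, 242, 288 and 262 on those of MEIS1-WT, 279, 255 and 260.4 on those of MEIS1-deltaHD and 255, 259.8 and 213 on those of M33-MEIS1. Every construct array was above every control array. The mean was 1.61, 1.62 and 1.48 times the control mean, differences of 0.64, 0.64 and 0.52 (SE 0.0961 in each, adjusted p = 1.06e-05, 9.14e-06 and 0.000166). A second probe set of Yars2 was not called with any construct, and the mean of both gave 0.37 (adjusted p = 0.0632) with MEIS1-deltaHD and 0.27 (adjusted p = 0.198) with M33-MEIS1.

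Sars2, the mitochondrial seryl enzyme, gave 30.7, 40.3 and 41.3 on the MIY-ctrl arrays, 61.5, 62.6 and 55.2 on those of MEIS1-WT, 53.9, 47.9 and 69.2 on those of MEIS1-deltaHD and 40.1, 47.8 and 46.2 on those of M33-MEIS1. The MEIS1-WT and MEIS1-deltaHD arrays cleared the control and those of M33-MEIS1 overlapped it. The differences were 0.51, 0.45 and 0.19 (SE 0.15 in each, adjusted p = 0.0104, 0.0218 and 0.374). With MEIS1-WT the value was 0.41 on leaving out MIY-ctrl replicate 1 (adjusted p = 0.0638), and with MEIS1-deltaHD 0.35 on leaving out MIY-ctrl replicate 1 (adjusted p = 0.108) and 0.33 on leaving out MEIS1-deltaHD replicate 3 (adjusted p = 0.138).

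Tars2, which charges mitochondrial threonine tRNA, gave 211, 207 and 194 on the MIY-ctrl arrays, 241, 241 and 263 on those of MEIS1-WT, 270.0, 278 and 240.2 on those of MEIS1-deltaHD and 209, 245 and 259 on those of M33-MEIS1. It was separate from the control with MEIS1-WT and MEIS1-deltaHD and overlapped it with M33-MEIS1. The differences were 0.26, 0.34 and 0.20 (SE 0.0953 in each, adjusted p = 0.0356, 0.00651 and 0.116). With MEIS1-WT the call was lost when any of 5 arrays was left out: the value was 0.29 on leaving out MIY-ctrl replicate 1 (adjusted p = 0.0513), 0.23 on leaving out MIY-ctrl replicate 3 (adjusted p = 0.102), 0.28 on leaving out MEIS1-WT replicate 1 (adjusted p = 0.0531), 0.28 on leaving out MEIS1-WT replicate 2 (adjusted p = 0.0597) and 0.23 on leaving out MEIS1-WT replicate 3 (adjusted p = 0.127). With M33-MEIS1 it was gained, at 0.28 on leaving out M33-MEIS1 replicate 1 (adjusted p = 0.0399). A second probe set of Tars2 was not called with any construct (0.072, 0.17 and -0.070). With the mean of its probe sets, Tars2 differed by 0.17 with MEIS1-WT (adjusted p = 0.113), while the call with MEIS1-deltaHD was kept.

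Iars2, the mitochondrial isoleucyl enzyme, gave 203, 137 and 212 on the MIY-ctrl arrays, 227, 248 and 229.9 on those of MEIS1-WT, 233, 227 and 200.4 on those of MEIS1-deltaHD and 217, 212 and 195 on those of M33-MEIS1. One control array was far below the other 2, and in the MEIS1-WT comparison alone the groups did not overlap. The differences were 0.35, 0.26 and 0.18 (SE 0.119 in each, adjusted p = 0.027, 0.0943 and 0.261). With MEIS1-WT the value was 0.16 on leaving out MIY-ctrl replicate 2 (adjusted p = 0.245) and 0.31 on leaving out MEIS1-WT replicate 2 (adjusted p = 0.0984). With MEIS1-deltaHD it was 0.36 on leaving out MIY-ctrl replicate 3 (adjusted p = 0.0242). A second, dim probe set of Iars2 was not called with any construct (0.098, -0.25 and 0.15). With the mean of its probe sets, Iars2 differed by 0.22 with MEIS1-WT (adjusted p = 0.254).

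Aars2, the mitochondrial alanyl enzyme, was dim: it gave 60.0, 23.5 and 10.4 on the MIY-ctrl arrays, 47.9, 39.97 and 46.3 on those of MEIS1-WT, 49.5, 54.0 and 67.1 on those of MEIS1-deltaHD and 25.9, 45.7 and 50.3 on those of M33-MEIS1. The arrays overlapped in every comparison, and the differences were 0.50, 0.76 and 0.37 (SE 0.251 in each, adjusted p = 0.139, 0.0204 and 0.289). The call with MEIS1-deltaHD became 0.69 on leaving out MIY-ctrl replicate 2 (adjusted p = 0.0597), 0.40 on leaving out MIY-ctrl replicate 3 (adjusted p = 0.178) and 0.66 on leaving out MEIS1-deltaHD replicate 3 (adjusted p = 0.084). With MEIS1-WT and M33-MEIS1 the values rose to 0.91 on leaving out MIY-ctrl replicate 1 (adjusted p = 0.00202) and 0.78 on leaving out MIY-ctrl replicate 1 (adjusted p = 0.008).

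Cars2, the mitochondrial cysteinyl enzyme, gave 93.2, 73.4 and 94.1 on the MIY-ctrl arrays, 98.8, 113 and 118 on those of MEIS1-WT, 107, 114 and 102 on those of MEIS1-deltaHD and 124, 118 and 109 on those of M33-MEIS1. No construct array overlapped the control, yet this probe set was called with M33-MEIS1 alone. The differences were 0.30, 0.27 and 0.37 (SE 0.117 in each, adjusted p = 0.0547, 0.072 and 0.0168), and between M33-MEIS1 and the other constructs Cars2 was not called. With M33-MEIS1 it was 0.28 on leaving out MIY-ctrl replicate 2 (adjusted p = 0.0994) and 0.34 on leaving out M33-MEIS1 replicate 1 (adjusted p = 0.0657), and with MEIS1-WT 0.35 on leaving out MIY-ctrl replicate 3 (adjusted p = 0.0428) and 0.36 on leaving out MEIS1-WT replicate 1 (adjusted p = 0.0385). A second probe set was called higher with MEIS1-deltaHD (0.37, adjusted p = 0.033) and not with M33-MEIS1 (0.29, adjusted p = 0.112). The mean of its probe sets was called with MEIS1-WT (0.32, adjusted p = 0.0411) and not with M33-MEIS1 (0.23, adjusted p = 0.144). Quantile normalization and median scaling each called Cars2 higher with MEIS1-WT and MEIS1-deltaHD too.

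Lars2, the mitochondrial leucyl enzyme, was higher with MEIS1-WT (284 ± 3.14, SD, n = 3) than in the control (236 ± 2.36), with differences of 0.25, 0.19 and 0.028 (SE 0.0848 in each, adjusted p = 0.0257, 0.0898 and 0.841) over the 3 constructs. With MEIS1-WT it was 0.25 on leaving out MIY-ctrl replicate 1 (adjusted p = 0.0622), 0.25 on leaving out MEIS1-WT replicate 1 (adjusted p = 0.0604), 0.26 on leaving out MEIS1-WT replicate 2 (adjusted p = 0.0556) and 0.24 on leaving out MEIS1-WT replicate 3 (adjusted p = 0.0638). These values rest on the brightest probe set. A second probe set gave 0.15, 0.36 and 0.47 (adjusted p = 0.461, 0.0532 and 0.016) and was called higher with M33-MEIS1 alone. A further, dim one was not called. With the mean of its probe sets, Lars2 differed by 0.092 with MEIS1-WT (adjusted p = 0.543).

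The other 9 mitochondrial genes were not called in any comparison with the control. Wars2, the tryptophanyl enzyme, came nearest with MEIS1-deltaHD at 0.29 (adjusted p = 0.108), its arrays clear of the control. Vars2, the valyl enzyme, differed by 0.26, 0.23 and 0.15, and without MIY-ctrl replicate 3 it was 0.43 with MEIS1-WT (adjusted p = 0.0426). Fars2, the phenylalanyl enzyme, differed by 0.09, 0.15 and 0.027, Nars2, the asparaginyl enzyme, by 0.17, 0.077 and -0.10, and Rars2, the arginyl enzyme, by -0.00027, 0.026 and 0.11. Hars2, the histidyl enzyme, differed by -0.19, -0.18 and -0.12 and Pars2, the prolyl enzyme, by -0.13, -0.16 and -0.045. Ears2, the glutamyl enzyme, and Mars2, the methionyl enzyme, were dim, with control means of 38.3 ± 6.37 and 26.5 ± 4.77 (SD, n = 3), and differed by -0.24, -0.11 and -0.082 and 0.039, -0.14 and -0.066. At such signals a difference has a large error, with an SE of 0.182 for Ears2 and 0.184 for Mars2 against 0.0694 for Sars.

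**Figure D3:**
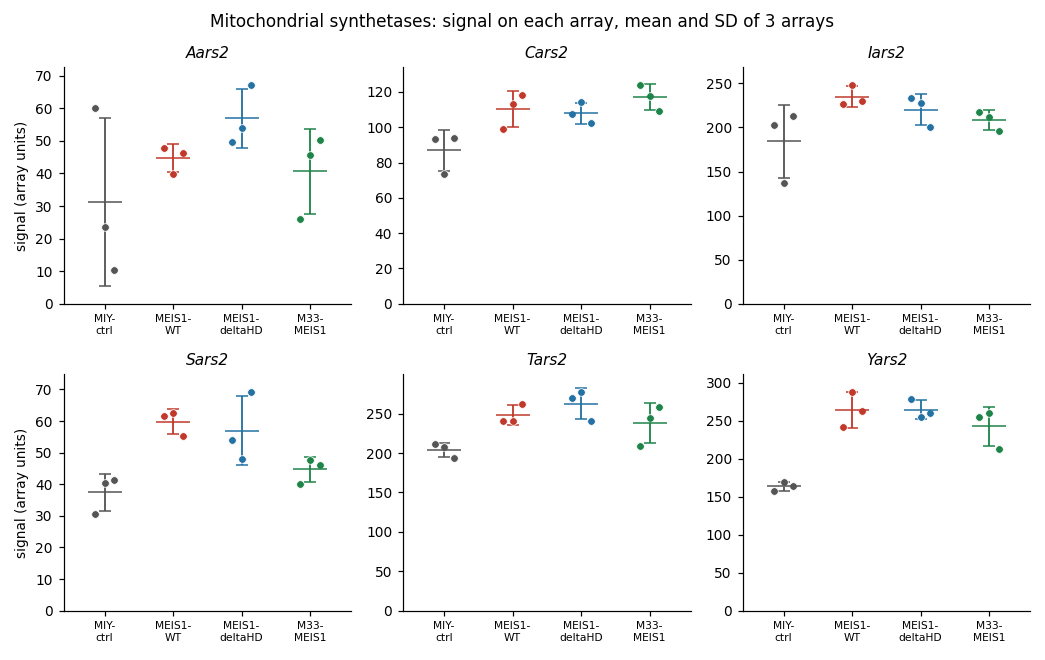
Signal in array units (vertical axes, from 0) of 6 mitochondrial synthetase genes on each of the 12 arrays, with the mean and SD of the 3 arrays of a group. Yars2 and Cars2 are higher on every construct array than on every MIY-ctrl array, while 1 control array of Iars2 stands well below the other 2 and 1 of Aars2 well above them.

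For 13 amino acids both compartments' enzymes were measured under matching names, a pairing chosen after the values were seen. The cytosolic gene was lower and the mitochondrial gene higher for 5 pairs in MEIS1-WT (Ile, Leu, Ser, Thr and Tyr), 4 in MEIS1-deltaHD (Ala, Ser, Thr and Tyr) and 2 in M33-MEIS1 (Cys and Tyr). The opposite was seen for 0 of the 13, and no pair was lower in both or higher in both. As no mitochondrial gene was called lower, the opposite and a pair lower in both could not arise. The pair counts largely restate the counts of each compartment, and no share expected from those was computed. The tyrosine pair was split in all 3 comparisons, with Yars at -0.76, -0.70 and -0.68 and Yars2 at 0.64, 0.64 and 0.52. The histidine pair had a higher cytosolic Hars (0.81, 0.72 and 0.56) beside a Hars2 that was not called (-0.19, -0.18 and -0.12).

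The comparisons between constructs ask whether the homeodomain or the M33 construct altered these genes. With the brightest probe set of each gene, limma called 0 of the 35 synthetases in any of the 3. Of all features, 2.43% were higher and 2.83% lower in MEIS1-WT than in MEIS1-deltaHD, 0.67% and 0.04% in M33-MEIS1 than in MEIS1-deltaHD, and 4.11% and 2.36% in M33-MEIS1 than in MEIS1-WT. At an unadjusted p under 0.05 there were 2, 3 and 6 of 35. The share of all features at that threshold was not computed, so these counts are not read as an excess. The smallest adjusted p was that of Farsa for MEIS1-WT minus MEIS1-deltaHD, -0.21 (95% confidence interval -0.39 to -0.033, unadjusted p = 0.0222, adjusted p = 0.199). For M33-MEIS1 minus MEIS1-deltaHD it was that of Wars, -0.24 (95% confidence interval -0.44 to -0.039, unadjusted p = 0.0213, adjusted p = 0.36), and for M33-MEIS1 minus MEIS1-WT that of Hars, -0.25 (95% confidence interval -0.42 to -0.087, unadjusted p = 0.00453, adjusted p = 0.0633). Sars differed by -0.21 (95% confidence interval -0.35 to -0.066, unadjusted p = 0.00613, adjusted p = 0.0783) in the last comparison and by 0.16 (95% confidence interval 0.018 to 0.31, unadjusted p = 0.0288, adjusted p = 0.232) in the first. The call for Hars between M33-MEIS1 and MEIS1-WT was made without M33-MEIS1 replicate 1 (-0.33, adjusted p = 0.0204), after quantile normalization (adjusted p = 0.0308) and with features required on all 12 arrays (adjusted p = 0.0449). The last filter also called Sars (adjusted p = 0.0436). Other probe sets, each fitted by limma as a feature of its own, differed in that comparison. The second probe set of Hars gave 0.060 (adjusted p = 0.841). A bright probe set of Qars that does not stand for the gene was higher in M33-MEIS1 (0.29, adjusted p = 0.046). For M33-MEIS1 minus MEIS1-deltaHD, the other probe sets of Wars gave -0.27, -0.14 and -0.00058 (adjusted p = 0.414, 0.708 and 0.999). The last is nearly as bright as the one used, with control means of 407 and 423.

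The intervals show what these arrays could leave undetected. For the cytosolic genes the 95% bounds lay between -0.39 and 0.31 for MEIS1-WT minus MEIS1-deltaHD, between -0.44 and 0.25 for M33-MEIS1 minus MEIS1-deltaHD and between -0.45 and 0.34 for M33-MEIS1 minus MEIS1-WT. Over the mitochondrial genes the widest bounds were -0.78 and 0.56, -0.90 and 0.45, and -0.65 and 0.53. The differences from the control of Sars, Cars, Yars and Nars are larger than any of the cytosolic bounds. The missing calls do not show that the constructs act alike.

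**Figure D4:**
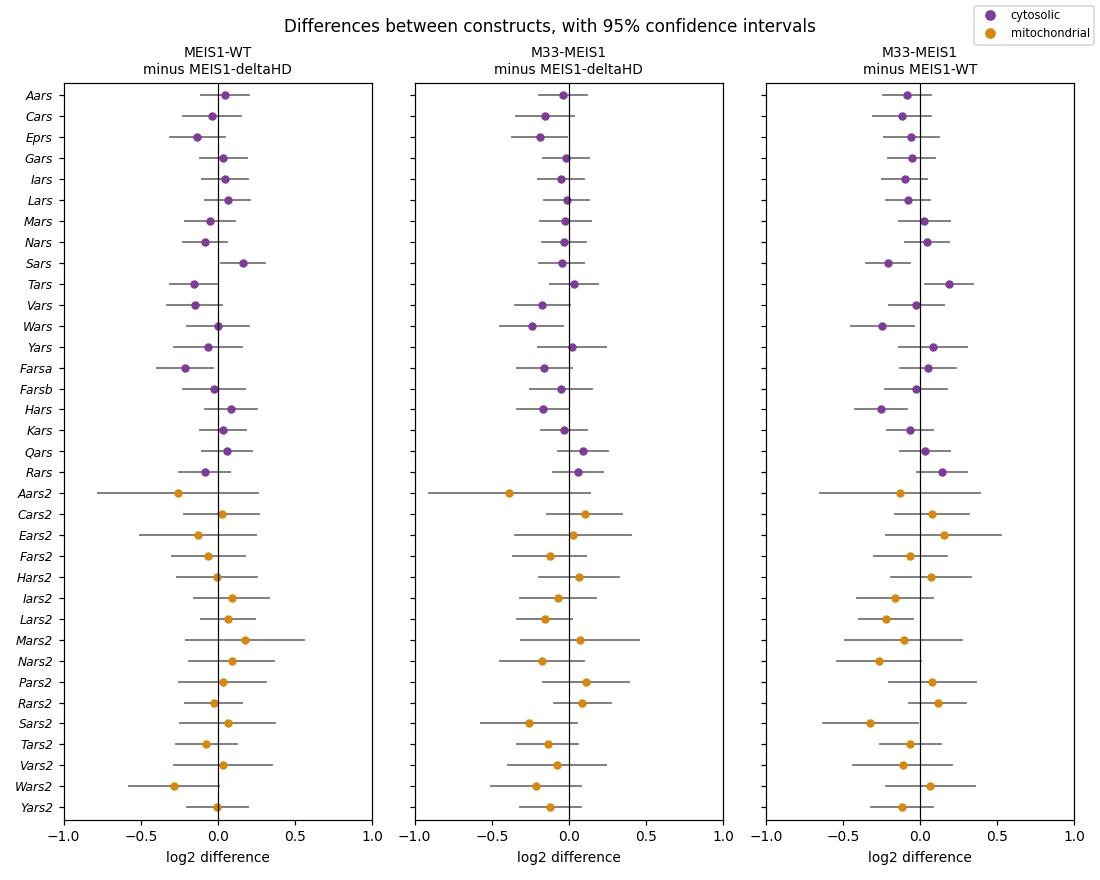
Differences of log2(signal + 16) between constructs (horizontal axes) for the 35 synthetase genes, points for the estimates and lines for the 95% confidence intervals, purple for cytosolic and orange for mitochondrial genes. The estimates lie between -0.39 and 0.19, no gene passed the adjusted test, and the widest intervals are those of mitochondrial genes.

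The other genes of the amino acid response were lower as well. Of 27 measured genes of ATF4 and amino acid stress, 20, 24 and 25 were lower and 1, 0 and 0 higher against the control, in the same order of constructs, with a median of -0.64, -0.96 and -0.90. Over all features, 19.4%, 22.7% and 18.3% were lower and 13.3%, 13.8% and 12.4% higher, with a median of -0.12, -0.17 and -0.13. Trib3, a pseudokinase raised by ATF4, gave 803, 986 and 711 on the MIY-ctrl arrays, 84.7, 98.3 and 78.3 on those of MEIS1-WT, 66.5, 41.5 and 74.9 on those of MEIS1-deltaHD and 72.3, 90.4 and 76.0 on those of M33-MEIS1. No construct array came near the control, and the differences were -3.03, -3.48 and -3.14. Atf5, a related transcription factor, differed by -2.74, -2.99 and -2.81, Nupr1, a stress-induced chromatin protein, by -2.00, -3.23 and -2.74, and Cth, which makes cysteine, by -2.70, -2.39 and -2.34. Atf4 itself differed by -0.40, -0.46 and -0.52. Nupr1 was also lower with MEIS1-deltaHD than with MEIS1-WT, a contrast in which no synthetase was called. Ddit4 was the gene higher with MEIS1-WT, by 0.34.

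Of 8 genes around the kinase GCN2, 5, 5 and 4 were higher and 1, 0 and 1 lower. Of all features 13.3%, 13.8% and 12.4% were higher and 19.4%, 22.7% and 18.3% lower, here and for the lists that follow. Among features in the cytosolic synthetases' range of mean signal, 42.1%, 44.7% and 40.5% were higher and 21%, 22.5% and 20.2% lower. No background was matched to the signal of these lists. Eif2ak4 itself was not called (0.15, 0.026 and 0.067). The subunits Eif2b1, Eif2b3, Eif2b4 and Eif2b5 of the exchange factor that recharges eIF2 were higher with all 3 constructs, Eif2b3 by 0.63, 0.73 and 0.63 and Eif2b1 by 0.63, 0.69 and 0.55, while Eif2b2 was lower with MEIS1-WT and M33-MEIS1 (-0.29 and -0.27).

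Genes that make and modify tRNA were more often higher than lower, as were the features in the cytosolic synthetases' range of mean signal. Of 17 genes, 8, 9 and 9 were higher and 2, 3 and 3 lower. Rpp30 and Pop1, parts of the nuclease that trims the 5′ end of tRNA, differed by 0.60, 0.89 and 0.73 and by 0.59, 0.93 and 0.65. Trmt6, of the enzyme that methylates adenosine in the tRNA body, differed by 0.88, 0.72 and 0.70, and Elac2, which trims the 3′ end, by 0.51, 0.82 and 0.49. Xpot, the exporter that carries tRNA out of the nucleus and is itself known as an ATF4 target, was lower, with differences of -0.33, -0.42 and -0.33. Of 7 synthetase-like and editing genes, 2 were higher with each construct, Aarsd1 by 0.86, 0.91 and 0.85 and Dtd1 by 0.82, 0.63 and 0.39, both of which clear mischarged tRNA, and Sepsecs was lower with MEIS1-deltaHD (-0.36).

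Of 4 cytosolic elongation factors 3 were lower and 1 higher with each construct. Eef1a1, which delivers charged tRNA, differed by -0.33, -0.45 and -0.24 and was lower, as were Eef1b2 and Eef2, and Eef1d was higher by 0.42, 0.43 and 0.41. In the mitochondrion 3, 3 and 2 of 8 factors were higher and 1, 1 and 0 lower. Gfm1, the translocation factor, differed by 0.80, 0.91 and 0.77, Tsfm by 0.69, 0.72 and 0.51, and Tufm, the counterpart of Eef1a1, by 0.45, 0.60 and 0.18, the last not called with M33-MEIS1. Mtif2 was the lower one, at -0.29 with MEIS1-WT and -0.28 with MEIS1-deltaHD. Of 4 other genes of mitochondrial tRNA charging, Gatb alone was called, higher with MEIS1-WT by 0.39.

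**Figure D5:**
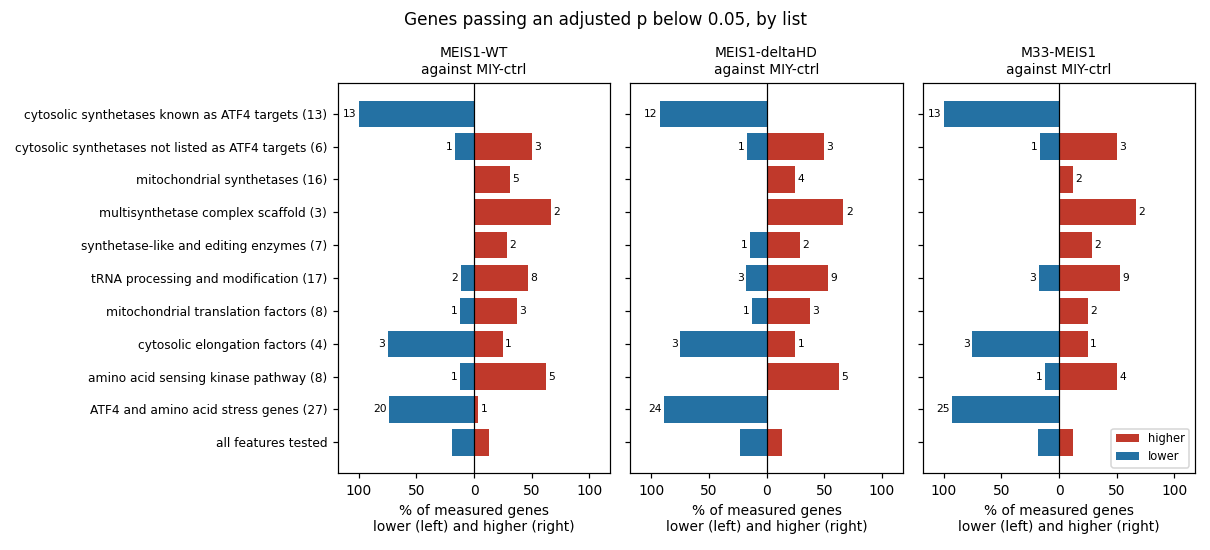
Percent of the measured genes of each list (number in brackets) called lower (to the left, blue) or higher (to the right, red) against MIY-ctrl, with the number of genes at each bar and all features tested in the bottom row. The listed ATF4 targets among the cytosolic synthetases (13, 12 and 13 lower) and the other ATF4 genes (20, 24 and 25 of 27 lower) point left, and the mitochondrial synthetases (5, 4 and 2 of 16 higher) and tRNA processing genes (8, 9 and 9 of 17 higher) point right.

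The 35 genes were represented by 72 probe sets, and 23 of them by more than 1. Taken one by one, 4, 5 and 5 of the 40 cytosolic probe sets were higher and 24, 24 and 25 lower, in the same order of constructs. Of the 32 mitochondrial probe sets 5, 5 and 3 were higher and 0, 2 and 1 lower. Farsb with M33-MEIS1 was the single case of a gene whose probe sets were called in both directions.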

How the data were processed

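Total RNA, labelled with biotin, was measured on 12 Affymetrix arrays of 45101 probe sets, 3 per group. The authors deposited a linear signal intensity per probe set, made with GCOS 1.2, per the submitters' processing notes, and the deposited signals have the same 2% trimmed mean of 100 on each array. The scaling makes levels relative to each array's total, so a shift shared by most genes is not seen. Probe sets were named through the platform annotation given (34945 with 1 symbol). Those above the 40th percentile of their array on at least 3 of 12 arrays were kept, the brightest per gene, and log2(signal + 16) was fitted with limma 3.58.1 in R 4.3.3 over all 4 groups (8 residual degrees of freedom, intensity trend in the variance). All 72 probe sets of the members passed that filter. The fit was tested on simulated data. Dependence on processing was examined with another offset, other filters, quantile normalization and median scaling, other choices of probe set, fits to 2 groups, the replicate number as a block, and each array left out. Members and gene lists were chosen with earlier results of these data known. The background by signal range, the pairs of compartments, the intervals between constructs and the 3' to 5' ratios were added after the values were seen. Values per array are given for the called members with the largest differences (up to 6 cytosolic and 4 mitochondrial per comparison) and, of other lists, the 4 with the largest called differences are named; further genes named were chosen after their values were seen. The number of arrays limits the precision. No arrays held identical values, and same-group arrays correlated at 0.982 to 0.989.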

Additional observations from a re-analysis of the deposited data

How the results depend on the processing

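Of the cytosolic genes called lower, 8 of 14 with MEIS1-WT, 7 of 13 with MEIS1-deltaHD and 9 of 14 with M33-MEIS1 were called under every alternative that could be computed for them, as were 2 of the 3 called higher in each (not Farsa). Of the mitochondrial genes called higher, 1 of 5 (Yars2), 1 of 4 (Tars2) and 0 of 2 were. Over the single genes against the control, 1451 of the values under an alternative kept direction and call, 69 lost the call, 34 gained one and 6 turned. With median scaling, cytosolic genes called lower numbered 8, 7 and 9 and those called higher 5 with MEIS1-deltaHD and M33-MEIS1, and mitochondrial genes called higher numbered 8, 11 and 4. Quantile normalization gave 8 and 7 mitochondrial genes higher with MEIS1-WT and MEIS1-deltaHD, and 1 synthetase lower in M33-MEIS1 than in MEIS1-WT, and the filter on all 12 arrays gave 2 there. With the mean of a gene's probe sets, 3 mitochondrial genes were higher with MEIS1-WT and 0 with M33-MEIS1, and 1 was lower with MEIS1-deltaHD and with M33-MEIS1 (Ears2). With shared probe sets left out, 3, 2 and 1 mitochondrial genes were higher. Tars2 and Yars2 had no probe set left under that setting, and the other mitochondrial calls were kept. That setting turned Qars to 0.10, 0.14 and 0.30 with the 3 constructs and Farsb to -0.66 with MEIS1-deltaHD and -0.45 with M33-MEIS1, and median scaling turned Mars to 0.025 with MEIS1-deltaHD. Except where other probe sets were used or fewer features tested, the cause was not tested. Leaving out 1 array at a time gave 2 to 6, 2 to 4 and 1 to 3 mitochondrial genes higher, 12 to 13, 11 to 13 and 12 to 14 cytosolic genes lower, 3 cytosolic genes higher throughout, and 0 to 1 synthetase lower in M33-MEIS1 than in MEIS1-WT. Same-numbered arrays did not deviate together (correlations of deviations -0.038 to 0.025 over 18 pairs), so the numbers were not treated as pairs. With the replicate number as a block, 14, 13 and 14 cytosolic genes were lower and 3 higher in each, 5, 4 and 2 mitochondrial genes were higher and 0 synthetases were called between constructs. Dim probe sets, most of them mitochondrial, have the largest errors, and signals near the floor understate a difference on the log2(signal + 16) scale.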
